A study of Mus musculus with 12 samples.

Results

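The lysosome degrades proteins, glycans, nucleic acids and lipids in an acidic lumen, and its content is made by a set of acid hydrolases, small activator proteins and heavily glycosylated membrane proteins. Soluble hydrolases reach it from the Golgi apparatus, mostly by a mannose 6-phosphate tag, and a proton pump of the vacuolar type keeps the lumen acid. The transcription factor Tfeb binds a short palindromic element in the promoters of many of these genes, and phagocytic cells such as microglia, the resident macrophages of the spinal cord, are rich in lysosomes. Loss of single hydrolases causes storage disorders that often affect the nervous system.

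Transcripts of 43 lysosomal genes were followed in the spinal cord of mice with and without Plekhg5 and with and without a transgene for mutant human SOD1. The genes were taken by symbol from the deposited count table: they are 43 of its 45906 genes, and all 43 passed the filter on low counts that left 20155 genes for testing. By role they comprise 10 cysteine proteases, 3 other proteases, 10 glycosidases, 3 sulfatases, 5 lipid hydrolases, 3 activator or lipid transfer proteins, 8 membrane proteins and Tfeb. The study bred a Plekhg5 deficiency into the low-copy line of SOD1-G93A mice, a slowly progressing model of amyotrophic lateral sclerosis, and asked what loss of Plekhg5, a guanine nucleotide exchange factor linked to autophagy in motoneurons, changes in this model. Poly-A RNA of total spinal cord from animals aged 7 months was sequenced for Plekhg5+/+ mice (wild type), Plekhg5-/- mice, Plekhg5+/+ SOD1-G93A mice (SOD1-G93A mice below) and Plekhg5-/- SOD1-G93A mice (double mutants below), with 3 mice in each of the 4 genotypes and 1 library per mouse. All strains were on a C57BL/6 background and sex was not considered. The kind of Plekhg5 allele is not given in the sources used here. The spinal cord was taken as a whole, so every value is an average over neurons, glia and vessels.

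The 12 libraries held between 30415643 and 38743628 counts. Plekhg5 stood at 19.4, 24.5 and 24.96 CPM in wild-type, 3.28, 3.98 and 4.70 in Plekhg5-/-, 21.5, 24.9 and 20.9 in SOD1-G93A and 4.72, 3.92 and 4.14 in double mutant mice, so the targeted transcript was low in all 6 Plekhg5-/- libraries. Human SOD1 ranged from 4421 to 5638 CPM in the 6 transgenic libraries and from 0.153 to 5.47 CPM in the others. CPM here are counts divided by library sizes that were scaled by the trimmed mean of M values (TMM). Transcripts from the Y chromosome were found in 3 of 3 wild-type, 2 of 3 Plekhg5-/-, 2 of 3 SOD1-G93A and 1 of 3 double mutant libraries. Library #1 of the SOD1-G93A group stood apart: it was the highest of its group in 34 of the 43 lysosomal genes. Library #1 was also most often the highest in wild-type (24 genes), Plekhg5-/- (28 genes) and double mutant mice (25 genes). The cause was not tested. Values without SOD1-G93A library #1 are also given for the genes and counts that it moved most.

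Compared per length, as reads per kilobase of exon scaled to library size (RPKM), the members spanned a 384-fold range in wild-type spinal cord, from Ctsc to Psap. Psap, the precursor of the saposins that present sphingolipids to their hydrolases, was highest at 525 ± 10.5 RPKM (SD, n = 3). The abundant membrane glycoprotein Lamp1 followed at 298 ± 16.1 RPKM, and Ctsd, the main aspartic protease of lysosomes, at 269 ± 13.1 RPKM. These top positions were distinct: the 3 values of Psap, Lamp1 and Ctsd did not overlap. Ctsb, Gaa, Laptm4a and Lgmn came next with means from 148 down to 107 RPKM. At the other end stood Tfeb (3.21 ± 0.194 RPKM), Naglu (3.17 ± 0.396 RPKM) and Ctsk (3.16 ± 0.379 RPKM), whose values overlapped, and Ctsc (1.37 ± 0.0740 RPKM), which lay below them. Of the 42 neighbouring pairs in this order, 19 had overlapping values. Together the 43 genes took 0.708% of all normalized counts in wild-type mice.

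The first comparison asked how the lysosomal transcripts stood in SOD1-G93A mice against wild type with Plekhg5 intact. Of the 43 genes, 16 were higher and none lower at an adjusted p under 0.05 in edgeR's quasi-likelihood test with Benjamini-Hochberg adjustment over all 20155 genes. Over all genes tested, 2.09% were called higher and 0.377% lower. The same test gave an unadjusted p under 0.05 for 30 of the 43 and for 3659 of all 20155 genes. The genes that rose were led by the proteases Ctss, Ctsz, Ctsh and Ctsd, the growth factor precursor Grn, the membrane protein Laptm5 and the glycosidase Naglu, each with a log2 fold change above 1, while the lipid hydrolases and most membrane proteins did not pass the test. Without SOD1-G93A library #1 none of these leading genes was above 1, with log2 fold changes from 0.68 (Ctsh) to 0.98 (Laptm5). Log2 fold changes are from the edgeR fit and are given ± a standard error calculated back from the F statistic of the test. It is the absolute log2 fold change divided by the square root of F. The log2 fold changes of the 43 genes ran from -0.10 to 1.32, and 39 of 43 were above 0. Their median was 0.25, against a median of -0.00 over all genes tested. In 29 of 43 genes the lowest SOD1-G93A library lay above the highest wild-type library, which held for 11.6% of all genes. Summed over the 43 genes, normalized counts were 7084 ± 157 CPM in wild-type and 9324 ± 1596 CPM in SOD1-G93A mice (SD, n = 3 each), or 0.932% of counts in the latter.

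The count of calls varied with the libraries fitted. The number of members called was 0 without wild-type library #1 or without #2, 6 without wild-type #3, 10 without Plekhg5-/- #2 and 10 without double mutant #2, and 0 in a fit of the 2 genotypes alone, although none of the 16 fold changes changed sign under any of these settings. Calls over all genes also fell, from 498 to 4 without wild-type #1, 2 without wild-type #2 and 3 with the 2 genotypes alone. They stood at 456 without wild-type #3, 323 without Plekhg5-/- #2 and 313 without double mutant #2. Without SOD1-G93A library #1, 14 of the 16 members kept their call and their median on the log2 scale fell from 0.86 to 0.59. In whole tissue, fewer or more cells of a type and less or more RNA per cell cannot be told apart.

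**Figure D1:**
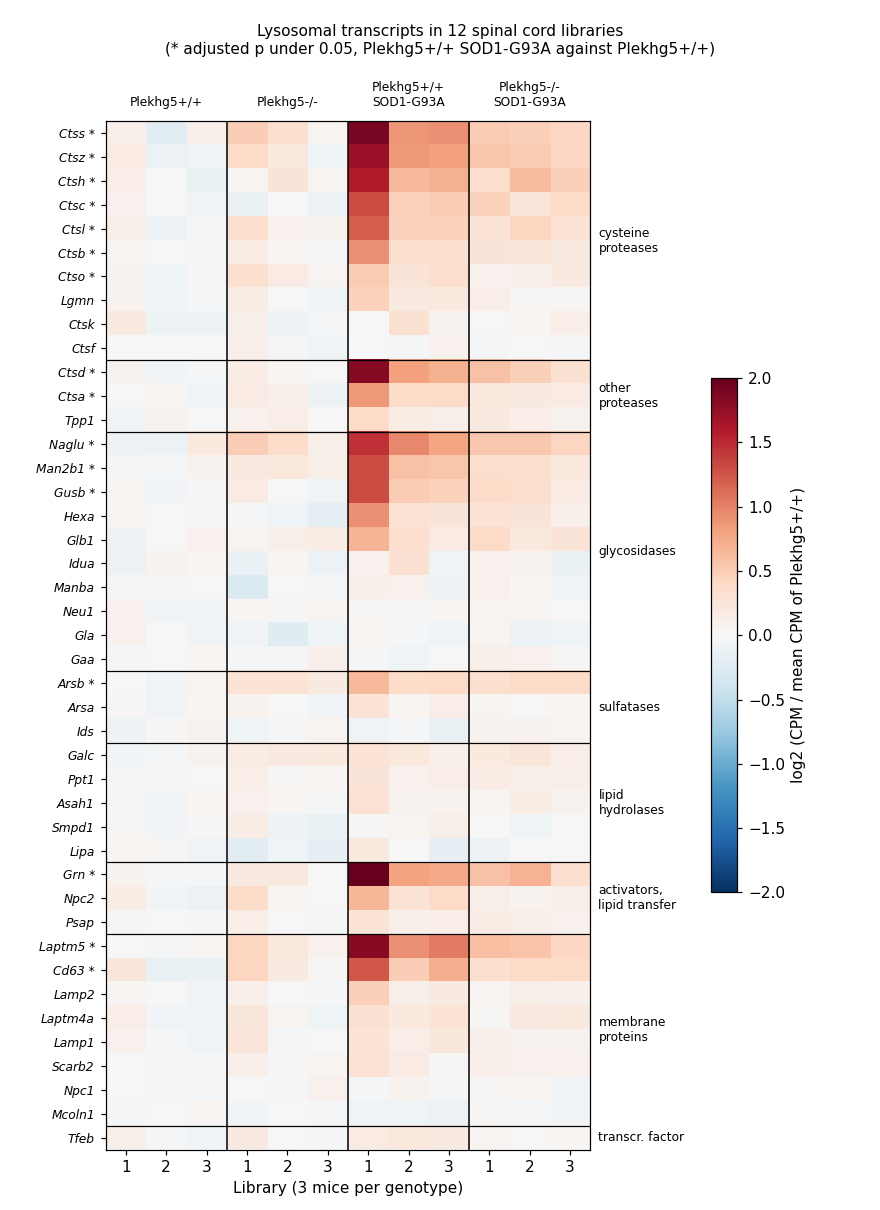
Heat map of 43 lysosomal genes (rows, grouped by role and ordered by fold change) in 12 libraries (columns, 3 mice per genotype); color is the log2 ratio of CPM to the wild-type mean, and asterisks mark the 16 genes with an adjusted p under 0.05 in SOD1-G93A against wild-type mice. Red concentrates in the protease, Grn and Laptm5 rows of the SOD1-G93A columns and is deepest in library #1, which was the highest of its group in all 16 marked genes.

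Among the cysteine proteases, 7 of 10 rose in SOD1-G93A mice. Ctss stood at 132, 105 and 132 CPM in wild-type, 173, 154 and 129 in Plekhg5-/-, 460.3, 227 and 232 in SOD1-G93A and 176, 171 and 165 in double mutant mice; its product processes the invariant chain of MHC class II and is typical of microglia. All 3 SOD1-G93A values lay above all wild-type values, and library #1 was far above the other two. The log2 fold change was 1.31 ± 0.24, with an adjusted p of 0.0206 in edgeR's test, and 0.89 without library #1.

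Ctsz stood at 53.3, 43.5 and 45.3 CPM in wild-type, 62.3, 54.9 and 45.8 in Plekhg5-/-, 157, 86.6 and 83.6 in SOD1-G93A and 69.8, 67.1 and 62.9 in double mutant mice; this gene encodes a carboxypeptidase of myeloid cells. The SOD1-G93A group was again clear of wild type, with a log2 fold change of 1.20 ± 0.21 and an edgeR adjusted p of 0.0197. Without SOD1-G93A library #1 the log2 fold change of Ctsz was 0.84. The aminopeptidase gene Ctsh gave 18.4, 16.8 and 15.2 CPM in wild-type, 17.4, 20.1 and 17.4 in Plekhg5-/-, 50.3, 26.3 and 27.6 in SOD1-G93A and 21.6, 25.7 and 23.4 in double mutant mice. No SOD1-G93A library fell within the wild-type range, and the log2 fold change was 1.05 ± 0.20 (edgeR adjusted p = 0.0240), or 0.68 without SOD1-G93A library #1. For Ctsc, the dipeptidyl peptidase that activates granule proteases of leukocytes, the libraries held 16.1, 15.1 and 14.5 CPM in wild-type, 13.7, 15.2 and 14.1 in Plekhg5-/-, 37.7, 21.1 and 21.6 in SOD1-G93A and 20.9, 18.03 and 19.9 in double mutant mice. It was the scarcest member per length in wild-type cord and rose by 0.81 ± 0.18 on the log2 scale (edgeR adjusted p = 0.0363), with 0.48 left without library #1. Ctso, a less studied papain-type protease, showed a smaller and tighter shift. Ctso stood at 49.7, 44.5 and 47.9 CPM in wild-type, 58.9, 53.3 and 48.9 in Plekhg5-/-, 67.2, 56.4 and 60.7 in SOD1-G93A and 50.02, 50.6 and 53.5 in double mutant mice. The groups were apart, and the log2 fold change was 0.37 ± 0.08 (edgeR adjusted p = 0.0345); this call was lost without SOD1-G93A library #1 (adjusted p = 0.143, and 0.00250 to 0.163 over all settings tried). The endopeptidase genes Ctsb and Ctsl rose by 0.56 and 0.75 on the log2 scale, and without library #1 by 0.34 and 0.46. Lgmn, the asparaginyl endopeptidase that matures other cathepsins, was at 0.28 ± 0.08 and did not pass the test (edgeR adjusted p = 0.0976), although its groups did not overlap. Its log2 fold change was 0.19 without library #1. DESeq2 called Lgmn higher (adjusted p = 0.0414 with and 0.0412 without shrinkage). Ctsk, best known as the collagenase of osteoclasts, was at 0.13 ± 0.12 and Ctsf at 0.02 ± 0.06, both with overlapping groups.

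Both remaining proteases with a call lie outside the papain family. Ctsd stood at 545, 496 and 509 CPM in wild-type, 574, 532 and 518 in Plekhg5-/-, 1845, 914 and 841 in SOD1-G93A and 779, 717 and 639 in double mutant mice. Library #1 of the SOD1-G93A mice stood out for this aspartic protease, and the other two were also above every wild-type value. Its log2 fold change was 1.22 ± 0.24 (edgeR adjusted p = 0.0275) and 0.76 without that library. For Ctsa, a serine carboxypeptidase that also shields Glb1 and Neu1 from degradation, the values were 102, 106 and 97.7 CPM in wild-type, 115, 109 and 95.3 in Plekhg5-/-, 187, 132 and 133 in SOD1-G93A and 118, 116 and 115 in double mutant mice. The groups did not overlap, with a log2 fold change of 0.56 ± 0.12 (edgeR adjusted p = 0.0276), or 0.38 without SOD1-G93A library #1. The tripeptidyl peptidase gene Tpp1 was at 0.22 ± 0.07 and missed the threshold (adjusted p = 0.131).

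Glycosidases split into 3 genes that rose and a larger number near 0. Naglu, which removes N-acetylglucosamine from heparan sulfate, had the smallest p of all members. Naglu stood at 7.34, 7.27 and 9.003 CPM in wild-type, 11.03, 10.2 and 8.58 in Plekhg5-/-, 21.6, 15.3 and 13.5 in SOD1-G93A and 11.4, 11.5 and 10.6 in double mutant mice. Every SOD1-G93A value exceeded every wild-type value, and the log2 fold change was 1.10 ± 0.16 (edgeR adjusted p = 0.0125), or 0.87 without SOD1-G93A library #1. Naglu was also among the lowest genes per length, so the rise stayed small in absolute counts. Man2b1, an acid alpha-mannosidase, gave 47.6, 47.9 and 51.6 CPM in wild-type, 55.6, 56.5 and 53.4 in Plekhg5-/-, 121, 73.3 and 71.9 in SOD1-G93A and 62.4, 61.3 and 57.05 in double mutant mice. It moved by 0.86 ± 0.16 on the log2 scale (edgeR adjusted p = 0.0197), with library #1 highest and the groups apart, and by 0.57 without that library. For Gusb, beta-glucuronidase, the counts were 20.6, 19.4 and 20.4 CPM in wild-type, 22.5, 20.2 and 19.2 in Plekhg5-/-, 49.9, 28.6 and 27.7 in SOD1-G93A and 26.4, 25.6 and 22.6 in double mutant mice. The wild-type and Plekhg5-/- ranges overlapped, the SOD1-G93A range lay above both, and the log2 fold change was 0.81 ± 0.18 (edgeR adjusted p = 0.0393), or 0.48 without library #1. Gusb, Hexa and Glb1 encode the 3 enzymes, or a subunit of them, whose activities the study assayed in tissue. For Hexa, the alpha subunit of beta-hexosaminidase, these were 62.8, 61.4 and 59.3 CPM in wild-type, 59.8, 57.8 and 53.4 in Plekhg5-/-, 115, 75.1 and 73.5 in SOD1-G93A and 74.1, 72.9 and 65.7 in double mutant mice. Glb1, beta-galactosidase, was at 22.6, 24.1 and 25.7 CPM in wild-type, 25.04, 26.2 and 26.8 in Plekhg5-/-, 38.6, 30.4 and 26.9 in SOD1-G93A and 31.5, 27.6 and 28.95 in double mutant mice. In neither gene did the SOD1-G93A libraries overlap wild type, yet the adjusted p was 0.0641 for Hexa (log2 fold change 0.52 ± 0.14) and 0.0752 for Glb1 (0.40 ± 0.11), both above the threshold of 0.05. DESeq2 called both higher. Its adjusted p was 0.00976 with and 0.0103 without shrinkage for Hexa, and 0.0251 and 0.0250 for Glb1. Without library #1 the edgeR log2 fold changes of Hexa and Glb1 were 0.28 and 0.25. The 5 others stood close to 0 with overlapping groups: the log2 fold change was 0.11 for Idua, 0.03 for Manba, 0.02 for the sialidase Neu1, -0.02 for Gla and -0.03 for the glycogen-degrading enzyme Gaa.

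Of the 3 sulfatases, 1 rose. Arsb, which acts on dermatan and chondroitin sulfate, gave 78.7, 76.1 and 81.6 CPM in wild-type, 94.8, 95.3 and 89.2 in Plekhg5-/-, 123, 101 and 102 in SOD1-G93A and 98.6, 102 and 102 in double mutant mice. Wild type was the lowest of the 4 genotypes, with no overlap with any of the others. The shift in SOD1-G93A mice was modest but had a small error, 0.47 ± 0.07 on the log2 scale (edgeR adjusted p = 0.0125). The sulfatide-degrading Arsa was at 0.15 ± 0.07 and Ids, which acts on heparan and dermatan sulfate, at -0.09 ± 0.06, both without a call.

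None of the 5 lipid hydrolases passed the test, by edgeR or by DESeq2, and 2 of them, Galc and Ppt1, had an unadjusted p under 0.05. Galc stood at 35.7, 36.5 and 38.9 CPM in wild-type, 41.1, 42.00 and 42.6 in Plekhg5-/-, 44.7, 43.1 and 39.8 in SOD1-G93A and 42.5, 43.99 and 40.7 in double mutant mice; the enzyme degrades the myelin lipid galactosylceramide. The groups were apart by a narrow margin, and the log2 fold change was 0.20 ± 0.06 (edgeR adjusted p = 0.108). The palmitoyl thioesterase Ppt1 stood at 0.16 ± 0.06, acid ceramidase Asah1 at 0.14 ± 0.07, acid sphingomyelinase Smpd1 at 0.06 ± 0.07 and the cholesteryl ester hydrolase Lipa at 0.01 ± 0.08. Smpd1 stood at 102, 96.5 and 101 CPM in wild-type, 111, 93.01 and 91.5 in Plekhg5-/-, 101, 103 and 108 in SOD1-G93A and 99.9, 94.5 and 101 in double mutant mice, and the wild-type and SOD1-G93A ranges overlapped.

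Grn, whose product progranulin is delivered to lysosomes and cut into granulins, was the 1 of 3 activator and lipid transfer genes that rose. Grn stood at 52.3, 49.4 and 48.5 CPM in wild-type, 56.8, 56.6 and 50.2 in Plekhg5-/-, 198, 87.4 and 84.9 in SOD1-G93A and 75.4, 80.7 and 63.5 in double mutant mice. Library #1 of the SOD1-G93A mice was far above the other two, which in turn lay above all wild-type values. The log2 fold change was 1.30 ± 0.27 (edgeR adjusted p = 0.0381) and 0.78 without library #1. Npc2, the soluble cholesterol carrier, was at 128, 111 and 107 CPM in wild-type, 149, 118 and 114 in Plekhg5-/-, 183, 139 and 152 in SOD1-G93A and 125, 121 and 125 in double mutant mice. Its SOD1-G93A libraries were above wild type and double mutants alike, at a log2 fold change of 0.45 ± 0.11 that did not pass (edgeR adjusted p = 0.0591). DESeq2 called Npc2 higher (adjusted p = 0.00967 with and 0.00997 without shrinkage). Psap, the most abundant member, was at 0.17 ± 0.06 (adjusted p = 0.163), with no overlap between the groups.

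**Figure D2:**
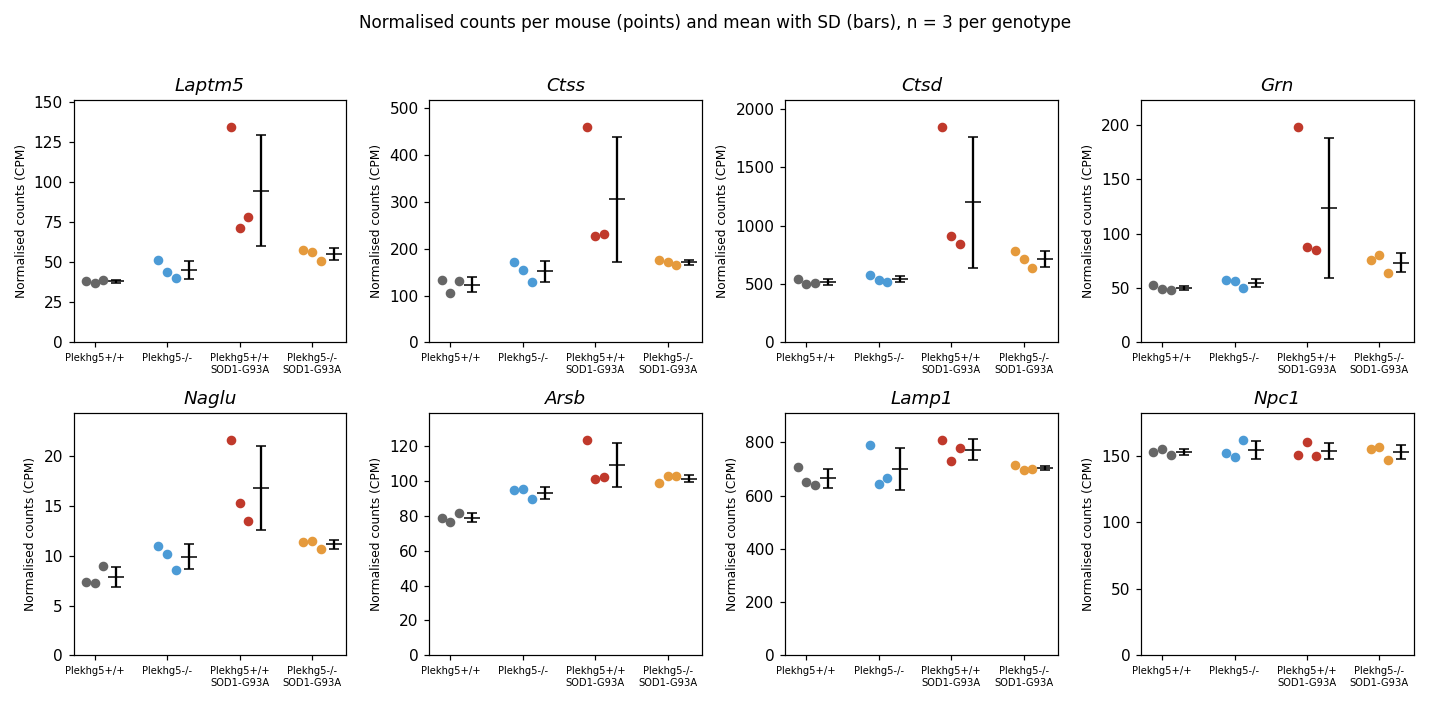
CPM per mouse for 8 lysosomal genes in the 4 genotypes (points, 3 mice per genotype; bars, mean with SD; each axis starts at 0). In Laptm5, Ctss, Ctsd, Grn and Naglu, SOD1-G93A values are highest and widest apart and double mutants lie between them and wild type, while Lamp1 shifts little and Npc1 is level.

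Of the 8 membrane proteins, Laptm5 and Cd63 rose. Laptm5 is a transmembrane protein of lysosomes in cells of hematopoietic origin. Laptm5 stood at 38.2, 36.9 and 38.9 CPM in wild-type, 51.4, 43.8 and 40.2 in Plekhg5-/-, 134, 71.5 and 77.9 in SOD1-G93A and 57.7, 56.2 and 50.7 in double mutant mice. The wild-type values were close together and the lowest SOD1-G93A value was well above them, which gave a log2 fold change of 1.32 ± 0.19 (edgeR adjusted p = 0.0125) and 0.98 without library #1. Its counts were not whole numbers in 9 of 12 libraries, so part of its reads was shared with another alignment or feature. The tetraspanin gene Cd63, also a marker of secretory lysosomes and exosomes, gave 65.5, 49.6 and 50.7 CPM in wild-type, 74.6, 62.7 and 55.9 in Plekhg5-/-, 130.5, 77.9 and 91.3 in SOD1-G93A and 70.1, 72.4 and 73.00 in double mutant mice. The groups were apart with a log2 fold change of 0.85 ± 0.17 (edgeR adjusted p = 0.0264), and the adjusted p was 0.0523 without library #1 (7.61e-05 to 0.138 over all settings tried). Without that library the log2 fold change of Cd63 was 0.61. Lamp1, whose product the study stained to mark lysosome-related vesicles, was at 707, 651 and 639 CPM in wild-type, 791, 645 and 666 in Plekhg5-/-, 808, 732 and 777 in SOD1-G93A and 714, 697 and 702 in double mutant mice. Its groups did not overlap either, but the distance was small, 0.21 ± 0.08 on the log2 scale (edgeR adjusted p = 0.156). The structural glycoprotein Lamp2 was at 0.26 ± 0.08, Laptm4a at 0.25 ± 0.09 and Scarb2, the sorting receptor of glucocerebrosidase, at 0.16 ± 0.07. The cholesterol exporter Npc1 was at 0.01 ± 0.05 and the cation channel Mcoln1, the 1 member whose SOD1-G93A libraries were all below wild type, at -0.10 ± 0.05. Tfeb itself was at 19.8, 17.97 and 17.8 CPM in wild-type, 20.98, 18.6 and 18.2 in Plekhg5-/-, 20.8, 21.4 and 21.1 in SOD1-G93A and 19.2, 18.5 and 19.1 in double mutant mice. SOD1-G93A mice were above wild type and double mutants with little spread, and the log2 fold change of 0.19 ± 0.07 was not called (edgeR adjusted p = 0.193).

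The element bound by Tfeb and its relatives contains the letters CACGTG, and its extended form TCACGTGA. Both are palindromes, so 1 strand gives all matches, and each extended match holds a short one. In RefSeq promoters of GRCm38.p6, from 250 bases before to 50 bases after the gene start, 39 of the 43 members had an entry. CACGTG was present in 12 of these 39 (30.8%) and in 8.09% of all 27025 genes with an entry, and TCACGTGA in 4 of 39 (10.3%) and 1.12% of all. CACGTG was held by 4 of 14 members that rose in SOD1-G93A mice and by 8 of 25 that were not called, and TCACGTGA by 2 of 14 and 2 of 25. Of the genes that rose, Ctsa, Ctsd, Ctsl and Naglu held the short form, while Ctss, Ctsz, Grn and Laptm5 were among those that held none in this window. The 150 bases before the gene start are shown for 6 members, in the direction of transcription with CACGTG in capitals, to set genes with the element that were not called (Lamp1, with 4 copies, and Glb1) beside genes with it that rose (Ctsd and Naglu) and genes without it that rose (Ctss and Ctsz). They lie at chr8:13159011-13159160 (plus strand) for Lamp1, chr9:114400928-114401077 (plus) for Glb1, chr7:142387828-142387977 (minus) for Ctsd, chr11:101069944-101070093 (plus) for Naglu, chr3:95526636-95526785 (plus) for Ctss and chr2:174439040-174439189 (minus) for Ctsz.
Lamp1: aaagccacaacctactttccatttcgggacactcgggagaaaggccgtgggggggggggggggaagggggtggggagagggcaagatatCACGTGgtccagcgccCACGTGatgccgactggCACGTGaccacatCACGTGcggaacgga
Glb1: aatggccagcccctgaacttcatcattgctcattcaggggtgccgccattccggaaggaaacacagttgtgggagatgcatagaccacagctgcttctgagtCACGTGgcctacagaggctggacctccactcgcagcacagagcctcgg
Ctsd: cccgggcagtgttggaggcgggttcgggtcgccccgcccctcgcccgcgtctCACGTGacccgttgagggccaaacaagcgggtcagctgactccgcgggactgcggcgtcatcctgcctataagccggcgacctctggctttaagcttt
Naglu: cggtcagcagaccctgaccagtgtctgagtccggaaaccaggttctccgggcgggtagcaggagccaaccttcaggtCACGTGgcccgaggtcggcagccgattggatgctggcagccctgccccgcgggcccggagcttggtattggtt
Ctss: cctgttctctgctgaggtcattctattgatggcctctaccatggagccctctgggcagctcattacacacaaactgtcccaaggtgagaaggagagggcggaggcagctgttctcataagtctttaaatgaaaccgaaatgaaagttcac
Ctsz: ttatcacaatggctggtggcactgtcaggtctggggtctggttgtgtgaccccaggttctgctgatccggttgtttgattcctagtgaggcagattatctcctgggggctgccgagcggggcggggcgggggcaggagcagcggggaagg

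Other genes of the pathway were taken by role. Of 19 further lysosomal hydrolases and activators, 3 were called higher and none lower by edgeR, against 8 higher by DESeq2. Those called by edgeR included Galns, which desulfates keratan and chondroitin sulfate (log2 fold change 0.62 ± 0.14), and Dnase2a, an acid endonuclease (0.97 ± 0.23). Among 15 further membrane proteins edgeR called 2 higher, both typical of phagocytes, and DESeq2 called 2 higher and 1 lower. Cd68 gave 6.67, 7.21 and 6.31 CPM in wild-type, 10.4, 10.2 and 7.73 in Plekhg5-/-, 54.9, 25.4 and 23.1 in SOD1-G93A and 18.1, 16.4 and 12.7 in double mutant mice, a log2 fold change of 2.36 ± 0.30, and Slc11a1, the phagosomal metal transporter, was at 1.99 ± 0.32. Of the 20 proton pump genes 1 was called, the subunit isoform Atp6v0d2, which held at most 0.0613 CPM in wild-type and 0.390 to 0.901 CPM in SOD1-G93A libraries. Its counts ran from 0 to 39 over the 12 libraries, close to the floor. It could pass the filter on low counts only through groups with higher values, so its call says little about the pump. None of 10 genes for sorting to lysosomes was called by edgeR or DESeq2, with 2 at an unadjusted p under 0.05. None of 12 tested regulators was called by edgeR, with 3 at an unadjusted p under 0.05 and 1 called lower by DESeq2. Of 4 cystatins, inhibitors of cysteine proteases, 1 was called: Cst7, which moved by 5.30 ± 0.77 on the log2 scale, from 0.220 to 0.522 CPM in wild-type to 5.70 to 32.1 CPM in SOD1-G93A libraries. The median log2 fold change was 0.31 for the further hydrolases, 0.06 for the further membrane proteins, 0.01 for the proton pump, -0.01 for sorting and -0.04 for regulators.

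**Figure D3:**
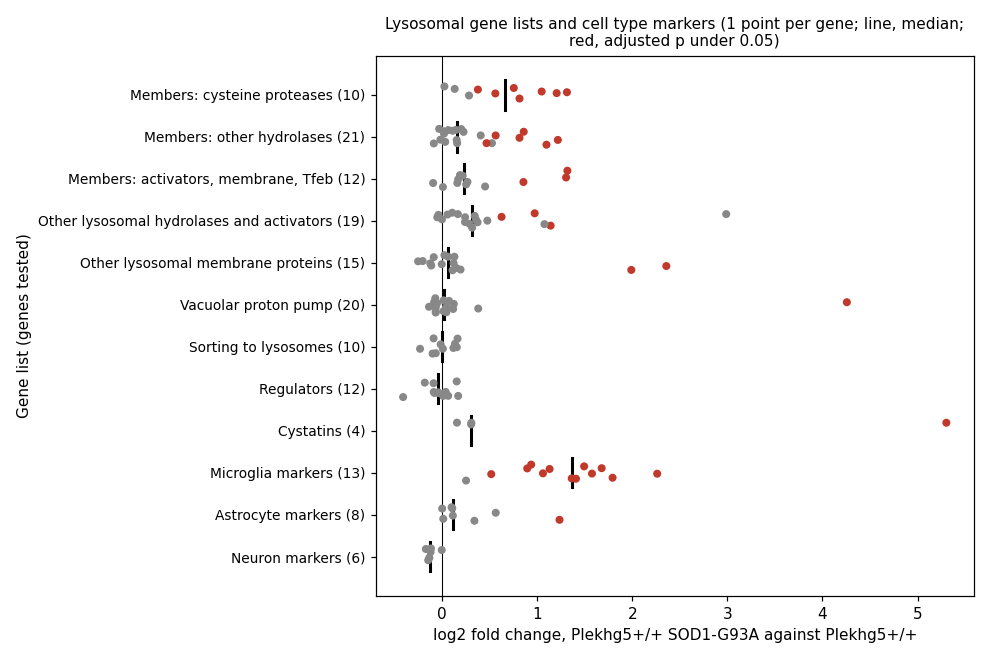
Log2 fold changes between SOD1-G93A and wild-type mice (x axis) for the 43 lysosomal genes in 3 groups, 6 other gene lists of the pathway and 3 lists of cell type markers (rows, number of tested genes in brackets; 1 point per gene; vertical line, median; red, adjusted p under 0.05). Cysteine proteases and microglia markers lie furthest to the right, with medians of 0.66 and 1.36, and the proton pump, sorting and regulator lists center near 0.

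Lists of cell type markers were read in the same comparison, and they did not all move in the same direction. Of 13 microglia markers, 12 were called higher in SOD1-G93A mice with a median log2 fold change of 1.36, and none was at 0 in any library. Their summed level was 415 to 474 CPM in wild-type, 442 to 615 CPM in Plekhg5-/-, 803 to 1560 CPM in SOD1-G93A and 593 to 653 CPM in double mutant mice. In SOD1-G93A library #1 these markers were at a median of 1.76 times the mean of the other two libraries, against 1.72 times for the 16 lysosomal genes that rose and 1.08 times for the 27 others. Of 8 astrocyte markers, 1 (Gfap) was called higher by edgeR and 2 by DESeq2, and their sum ran from 7563 to 7845 CPM in wild-type, 7488 to 9103 CPM in Plekhg5-/-, 9208 to 12207 CPM in SOD1-G93A and 8430 to 8725 CPM in double mutant mice. The count of microglia markers called was 10 with a median of 0.90 on the log2 scale without SOD1-G93A library #1, and 0 without wild-type library #1 or without #2. Of 6 neuron markers none was called by edgeR or DESeq2, with 2 at an unadjusted p under 0.05. Of 7 motoneuron markers none was called by edgeR, with 5 at an unadjusted p under 0.05, and DESeq2 called 2 lower; their sum was 299 to 307 CPM in wild-type and 217 to 284 CPM in SOD1-G93A mice. The part of microglia or astrocytes in the lysosomal differences was not tested.

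The second comparison asked what loss of Plekhg5 changes in mice that carry the transgene. By edgeR's quasi-likelihood test, none of the 43 genes was called between double mutants and SOD1-G93A mice. Over all genes, 0.0347% were called in either direction. An unadjusted p under 0.05 was found for 19 members, 18 of them lower, against 10 members without SOD1-G93A library #1. Over all 20155 genes it was found for 1741, 1018 of them lower. The DESeq2 test called 2 members lower with the shrinkage of fold changes that the study used, Laptm5 (adjusted p = 0.00659) and Ctsz (adjusted p = 0.0382), and only Laptm5 without shrinkage (adjusted p = 0.0117); over all settings tried the adjusted p ran from 0.00659 to 0.869 for Laptm5 and from 0.0382 to 0.869 for Ctsz. Over all genes DESeq2 called 114 with and 72 without shrinkage. In the edgeR fit, 39 of 43 log2 fold changes were below 0 with a median of -0.12, against -0.01 over all genes. In 21 of 43 genes every double mutant library lay below every SOD1-G93A library, which held for 10% of all genes. Without library #1, 12 members instead of 4 had a log2 fold change above 0. This comparison shares its SOD1-G93A libraries with the first, so opposite signs in the same genes are not independent.

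All 16 genes that rose in SOD1-G93A mice had a lower mean in double mutants, and in 15 of them, all but Arsb, the groups did not overlap. Over all genes the double mutants were lower without overlap in 10%. The 16 genes were chosen for high values in these same SOD1-G93A libraries. Their lower values and negative median in double mutants are therefore in part fixed by that choice. Laptm5 had the smallest p, with a log2 fold change of -0.79 ± 0.19 and an edgeR adjusted p of 0.402. Naglu followed at -0.59 ± 0.16, Man2b1 at -0.56 ± 0.16, Ctss at -0.84 ± 0.24 and Ctsz at -0.71 ± 0.21. Ctsd was at -0.75 ± 0.24, Grn at -0.76 ± 0.27 and Ctsa at -0.37 ± 0.12, whereas Arsb was at -0.11 ± 0.07. The 16 genes summed to 2596, 2545 and 2379 CPM in double mutants and to 5136, 2953 and 2889 CPM in SOD1-G93A mice. These 16 genes had a median of -0.54 on the log2 scale, and -0.22 without SOD1-G93A library #1. Without it no member was called, and the log2 fold change was -0.45 for Laptm5, -0.37 for Naglu, -0.27 for Man2b1, -0.42 for Ctss, -0.35 for Ctsz, -0.30 for Ctsd, -0.24 for Grn, -0.19 for Ctsa and -0.01 for Arsb. Cell type markers differed in the same comparison, though edgeR called none of those named here. Of 13 microglia markers, 12 were lower at an unadjusted p under 0.05, with a median log2 fold change of -0.83. Of 6 endothelial markers, 5 were higher at an unadjusted p under 0.05 (median 0.52), with a sum of 119 to 143 CPM in SOD1-G93A and 161 to 213 CPM in double mutant mice. Of 3 Schwann cell markers, 2 were higher at an unadjusted p under 0.05 (median 1.37), and their sum was 44.9 to 129 CPM in SOD1-G93A, 221 to 340 CPM in double mutant and 56.4 to 230 CPM in wild-type mice. The part of these cells in the lysosomal differences was not tested.

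Among the 27 other members the differences were small. Npc2 was lower in all 3 double mutants, at a log2 fold change of -0.35 ± 0.11 (edgeR adjusted p = 0.468; -0.23 without library #1), as were Lgmn, Lamp1, Lamp2, Smpd1 and Tfeb, with values of -0.22, -0.13, -0.18, -0.08 and -0.15. Ids stood at 431, 470.1 and 483 CPM in wild-type, 434, 456 and 477 in Plekhg5-/-, 437, 449.9 and 414 in SOD1-G93A and 483, 485 and 477 in double mutant mice; this gene went the other way. Its double mutant libraries were above all SOD1-G93A libraries by a narrow margin, at a log2 fold change of 0.15 ± 0.06 (edgeR adjusted p = 0.525). Gaa (0.11) and Mcoln1 (0.08) were likewise apart and higher, and neither was called. The mean of the double mutants lay between those of wild-type and SOD1-G93A mice in 16 of the 16 genes that rose and in 36 of all 43. The share over all genes was not calculated, so these counts have no reference. The 16 genes were chosen by the distance between their wild-type and SOD1-G93A values, so their count is in part fixed by that choice.

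**Figure D4:**
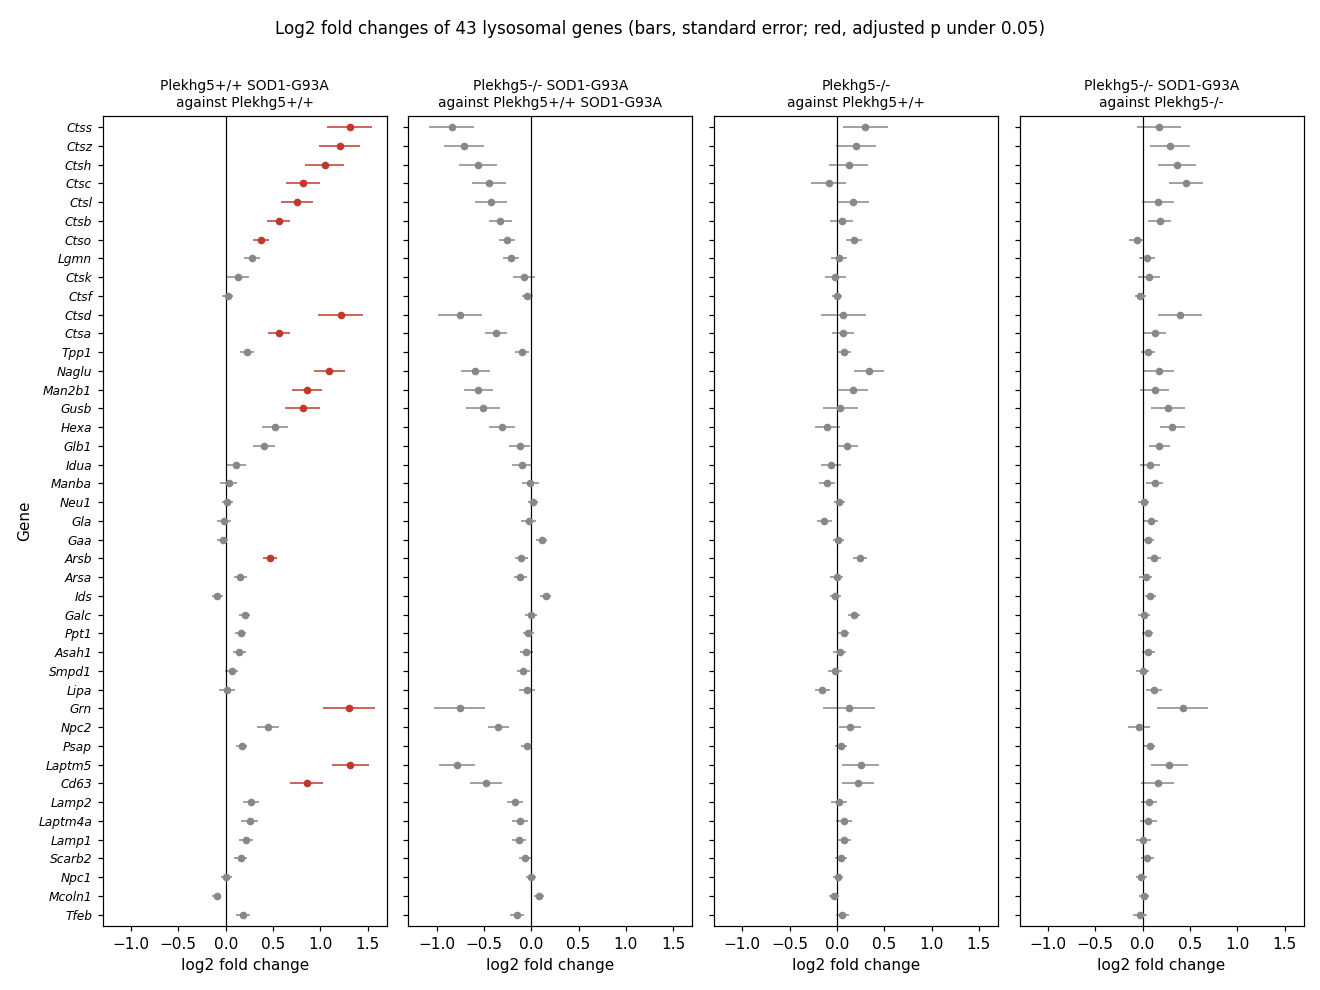
Log2 fold changes (points) with standard errors (bars) of the 43 lysosomal genes in 4 comparisons between genotypes, with genes in the same order in each panel and red for an adjusted p under 0.05. The 16 red points are all in the first panel, the second panel lies mostly left of 0, and in the last 2 panels no gene was called; neighboring panels share libraries.

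The third comparison asked what loss of Plekhg5 changes without the transgene. Between Plekhg5-/- and wild-type mice no member was called by edgeR or by DESeq2. Over all genes edgeR called 0.0298%, and DESeq2 called 32 genes with and 34 without shrinkage. The log2 fold changes of the members ran from -0.15 to 0.34 with a median of 0.05. By edgeR 3 of the 43 members had an unadjusted p under 0.05 (2 to 8 over all settings tried), against 1073 of all 20155 genes. The 3 genes were Arsb (0.24 ± 0.07, edgeR adjusted p = 0.778), Galc (0.18 ± 0.06) and Ctso (0.18 ± 0.08). All Plekhg5-/- libraries were above wild type in 5 members, Man2b1, Arsb, Galc, Ppt1 and Laptm5, against 4.72% of all genes. For the enzymes assayed by the study the log2 fold changes were -0.10 ± 0.14 for Hexa, 0.11 ± 0.11 for Glb1 and 0.03 ± 0.18 for Gusb, and Lamp1 was at 0.07 ± 0.08.

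The fourth comparison took the transgene without Plekhg5. Between double mutants and Plekhg5-/- mice, no member was called by edgeR or DESeq2. Over all genes edgeR called 0.00496%, and DESeq2 called 41 genes with and 45 without shrinkage. By edgeR 2 of the 43 members had an unadjusted p under 0.05 (0 to 11 over all settings tried), against 1084 of all 20155 genes. The 2 members were Ctsc at 0.45 ± 0.18 and Hexa at 0.31 ± 0.14. The median log2 fold change was 0.08 over the 43 genes and 0.18 over the 16 that rose in SOD1-G93A mice; these 16 were chosen by their values in the first comparison, so its median is not set beside this one. In 11 members, among them Ctsd (0.39), Grn (0.42), Ctsz (0.29) and Gusb (0.27), every double mutant library exceeded every Plekhg5-/- library, against 7.25% of all genes.

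The difference between the effects of the transgene with and without Plekhg5 was tested as an interaction. By edgeR no member was called, and 0% of the 20155 genes tested were. An unadjusted p under 0.05 was found for 15 members, all with a negative term. Over all genes it was found for 1824, 1045 of them with a negative term. The term was -0.93 ± 0.23 for Naglu (edgeR adjusted p = 0.338), -1.03 ± 0.27 for Laptm5 (0.375), -0.44 ± 0.12 for Ctso (0.375) and -1.14 ± 0.33 for Ctss (0.403). Without SOD1-G93A library #1 the term was -0.71, -0.69, -0.37 and -0.72 for these genes, and no member was called. The median moved from -0.69 to -0.37 over the 16 genes and from -0.21 to -0.12 over all 43. The 16 genes were chosen by their rise in the first comparison, which enters the term with a minus sign. Their negative median is therefore in part fixed by that choice. DESeq2 called 2 members, Naglu and Laptm5, among 112 genes called with the shrinkage and 95 without it. Their adjusted p by DESeq2 was 0.0316 and 0.0216 with the shrinkage, and 0.0390 and 0.0303 without it. Over all settings tried the adjusted p ran up to 0.800 for both.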

How the data were processed

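Total spinal cord RNA (oligo-dT capture, reversely stranded libraries) was sequenced by the authors as single-end reads. Per the submitters' processing notes and the study's methods, reads were trimmed with cutadapt 2.4, mapped with STAR 2.7.2b to GRCm38.p6 plus the human SOD1 cDNA, and counted on exons with featureCounts 1.6.4; multi-mapping and multi-overlapping reads entered as fractions, so reads of near-identical or overlapping genes are split. The table the authors deposited therefore holds expected counts (estimated counts) per gene, and the other column, the exon length in bases, was taken as the authors deposited it. Counts were rounded to whole numbers here.

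Genes were filtered with filterByExpr, scaled by TMM and fitted over all 12 libraries and 4 genotypes with the quasi-likelihood model of edgeR 4.0.16 (robust; R 4.3.3). P-values were adjusted over all 20155 genes, with 0.05 as threshold. The study's tool, DESeq2, was run as version 1.42.0 with and without shrinkage of fold changes. Other alternatives were DESeq2 size factors, no filter, a minimum of 10 counts in every library, a threshold of 0.1, the 2 genotypes alone, a replicate block, a covariate for Y-linked transcripts and leaving out each library. Scripts were tested on simulated data. The members and gene lists were chosen with earlier results of these data known. All members are accounted for; values in every library are given for members called, for the member with the smallest p per role in the first 2 comparisons (beyond 12 called genes, 1 value each), and for Hexa, Glb1, Gusb, Lamp1, Ctsd and Tfeb; of the other lists up to 4 called genes with the smallest p, with Cd68, are named (1 gene that the rule names is not reported here), and Gfap was added after its value was seen. Replicates are separate mice and differed by more than sampling noise.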

Additional observations from a re-analysis of the deposited data

How the results depend on the processing

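The depth of 30415643 counts or more per library gave every lysosomal gene at least 210.0 counts in each library. How much of the spread between 3 mice per genotype is counting error was not tested for single genes. For SOD1-G93A against wild-type mice, 16 lysosomal genes were called; this became 7 with no filter on low counts, 0 with the 2 genotypes alone and 0 to 18 when 1 library was left out, while the DESeq2 tests called 20 with and 20 without shrinkage, DESeq2 size factors 16, a minimum of 10 counts in every library 16, the Y-linked covariate 17 and a threshold of 0.1 gave 20. Over all genes, 498 were called in the main fit, 475 with no filter and 3 with the 2 genotypes alone. DESeq2 called 1190 of all genes with and 1159 without shrinkage. The cause of these changes was not tested. None of the 16 fold changes reversed under any alternative, and the median log2 fold change of all 43 genes stayed between 0.19 and 0.30. For double mutants against SOD1-G93A mice, 0 genes were called by edgeR and also with any 1 library left out, against 2 by DESeq2 with and 1 without shrinkage; the median over the 43 genes stayed between -0.15 and -0.10. For the interaction, edgeR called 0 and DESeq2 2 with and 2 without shrinkage. Deviations of same-numbered libraries correlated between -0.109 and 0.318, and not in every pair above 0.1. For libraries #1 the correlation was 0.318 between Plekhg5-/- and wild-type mice and 0.298 between double mutants and SOD1-G93A mice. It was 0.124 between double mutants and Plekhg5-/- mice and -0.003 between SOD1-G93A and wild-type mice. Whether same-numbered libraries share a component was not tested. With the replicate block the first comparison called 19 lysosomal genes and 631 of all genes, against 16 and 498 without it. The block changed none of the 16 calls.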
